A study of Mus musculus with 75 samples.

Results

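Insulin-like growth factor (IGF) signalling and its binding proteins were followed through 9 genes, the ligand Igf1, the receptors Igf1r and Igf2r, and the binding proteins Igfbp2, Igfbp3, Igfbp4, Igfbp5, Igfbp6 and Igfbp7. They were taken by name from the 24984 genes of the count tables, and all 9 were measured in all 44 RNA-seq libraries. The cells were mouse skin fibroblasts, primary cells that stop dividing after several passages in culture, a state called replicative senescence. The passage series held untreated cells of 2-month-old female mice at passages P1, P3, P5 and P7 (4 libraries each, with 13 ATAC-seq samples of the same passages), and P7 was the senescent stage. In the 4 interventions, skin fibroblasts carried lentiviral vectors: E2f4 overexpression with a vector control (2 libraries each, doxycycline-inducible), the E2f4 hairpin sh1 with non-targeting (nt) cells, the Tead1 hairpins sh3 and sh4 with nt cells, and the Atf3 hairpins sh5 and sh6 with nt cells (3 libraries each). For the interventions, cells of 2-month-old and of newborn mice were both used, and the strain of the newborn mice was not given. Which cells gave which libraries was not given in the sources used here. The paper describes E2f4 overexpression and Atf3 knockdown in pre-senescent cells, E2f4 knockdown in proliferating cells, and puromycin selection of hairpin cells. Nothing in the labels says that replicates came from separate cultures or animals, so the p-values measure the spread between these libraries, which may be technical.

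Igf1 is a secreted growth factor that acts through Igf1r, a receptor tyrosine kinase upstream of the PI3K, AKT and mTOR cascade, while Igf2r carries Igf2 to lysosomes and has no kinase of its own. The IGF-binding proteins hold IGFs in the extracellular space, where they can prolong their half-life or keep them from the receptor, and proteases such as the pappalysin Pappa cut them and set the ligand free. Igfbp7 binds IGFs only weakly. Several binding proteins are known components of the senescence-associated secretory phenotype of fibroblasts.

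The 9 genes lie on 7 chromosomes of GRCm38 (coordinates from RefSeq). Igf1 spans chr10:87858265-87937047 on the plus strand, Igf1r chr7:67952257-68233668 on the plus strand and Igf2r chr17:12682406-12769706 on the minus strand. Igfbp2 (chr1:72824480-72852474, plus strand) and Igfbp5 (chr1:72858065-72874865, minus strand) are neighbours whose 3′ ends face each other across 5590 bases. Igfbp3 (chr11:7206086-7215498, minus strand) and Igfbp4 (chr11:99040005-99052655, plus strand) share a chromosome but are far apart, while Igfbp6 lies at chr15:102144186-102149512 on the plus strand and Igfbp7 at chr5:77349240-77408045 on the minus strand. The authors counted reads without strand, so antisense reads could not be told apart: Igfbp7 shares 89 exonic bases with Polr2b on the other strand, and the antisense RNA Airn overlaps Igf2r without shared exonic bases. Airn reached at most 10.1 CPM (counts per 1000000 counts on genes) in any library, against at least 347 CPM for Igf2r.

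The sequences upstream of Igfbp2 and Igfbp5 are shown because both genes of this pair rose with passage. Igfbp2 had an ATAC-seq peak within 1000 bases of a start site in every sample, and Igfbp5 in some samples only. RefSeq gives Igfbp2 a first start site and, within its first intron, a second one. The stretches run 5′ to 3′ on the strand of the gene (GRCm38.p6) and end at or shortly before the start site, and capitals mark matches to the AP-1, TEAD or E2F motifs searched.
Igfbp2, first start site (chr1:72824230-72824479, plus strand): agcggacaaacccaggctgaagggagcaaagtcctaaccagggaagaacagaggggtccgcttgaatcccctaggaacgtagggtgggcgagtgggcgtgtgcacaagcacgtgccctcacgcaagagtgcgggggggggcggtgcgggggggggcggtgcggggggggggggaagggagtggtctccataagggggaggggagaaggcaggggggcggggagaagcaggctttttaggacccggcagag
Igfbp2, second start site (chr1:72825137-72825380, plus strand): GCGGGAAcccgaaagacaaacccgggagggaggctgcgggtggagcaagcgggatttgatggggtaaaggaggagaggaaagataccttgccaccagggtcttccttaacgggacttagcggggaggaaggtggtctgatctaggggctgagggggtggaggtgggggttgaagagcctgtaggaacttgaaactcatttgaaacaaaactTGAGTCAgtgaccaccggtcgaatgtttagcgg
Igfbp5 (chr1:72874866-72875115, minus strand): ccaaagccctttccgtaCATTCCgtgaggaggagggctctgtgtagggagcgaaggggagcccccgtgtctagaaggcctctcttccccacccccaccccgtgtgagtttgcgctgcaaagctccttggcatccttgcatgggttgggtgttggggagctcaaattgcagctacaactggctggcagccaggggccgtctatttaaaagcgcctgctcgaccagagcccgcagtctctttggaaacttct
The AP-1 letters TGAGTCA began 39 bases before the second Igfbp2 start site, and its stretch opened with GCGGGAA, the reverse complement of the E2F letters TTCCCGC. The Igfbp5 stretch held CATTCC, the reverse complement of the TEAD letters GGAATG, and the first Igfbp2 stretch held no match. Over 32851 promoter windows from 250 bases before to 50 after a start site, read on both strands, TGAGTCA or TGACTCA occurred in 5.20%, GGAATG in 14.7%, and TTGGCGC or TTCCCGC in 6.81%. The 9 genes had 10 such windows, and the only other match was TTCCCGC in Igfbp3, 130 bases before its start site. A match of letters is a description and not a binding site.

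The libraries held 9147324 to 27552949 counts on genes (13430229 to 15725823 in the passage series). All 10 fibroblast markers were detected in every group, and their summed level was 26480 to 28060 CPM at P1 and 42120 to 48490 CPM at P3. P1 also held more markers of other cells: the 12 macrophage markers summed to 339 to 528 CPM at P1 and to 47.5 to 64.5 CPM at P3, endothelial markers to 166 to 185 and 44.5 to 56.1 CPM, keratinocyte markers to 64.6 to 393 and 3.09 to 6.31 CPM, and skeletal muscle markers to 173 to 264 and 56.5 to 64.8 CPM. Adipocyte markers summed to 431 to 588 CPM at P1 and 230 to 413 CPM at P3, whereas Schwann cell and melanocyte markers summed to 36.0 to 45.0 CPM at P1 and 62.3 to 83.8 CPM at P3. The part of these cells in the differences between P1 and later passages was not tested, and in bulk RNA fewer cells of a type and less RNA per cell cannot be told apart. The comparison of P7 with P3 is therefore also given for the 9 genes. The senescence markers Cdkn1a (207 to 250.5 CPM at P1, 641 to 722 CPM at P7) and Cdkn2a (7.12 to 9.65 CPM at P1, 179 to 269 CPM at P7) both rose with passage, with adjusted p = 3.88e-10 and 1.26e-11 for P7 against P1. Adjusted p-values here are from edgeR's quasi-likelihood test with Benjamini-Hochberg adjustment over all genes tested, and a gene is said to rise or fall where it is under 0.05.

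Passage changed most of the 9 genes. At P7 against P1, 7 rose and 1 fell, where 30.5% of the 13442 genes tested rose and 31.9% fell, and the median log2 fold change was 0.91 over the 9 and -0.01 over all genes. At P7 against P3, 5 rose (Igf2r, Igfbp2, Igfbp5, Igfbp6 and Igfbp7) and 1 fell (Igfbp3), against 24.8% and 26.5% of all genes. At the single steps, 5 rose and 2 fell at P3 against P1 (all genes 16% and 17.5%), 3 rose and none fell at P5 against P3 (13.4% and 15.3%), and 3 rose and 1 fell at P7 against P5 (7.67% and 9.10%).

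**Figure D1:**
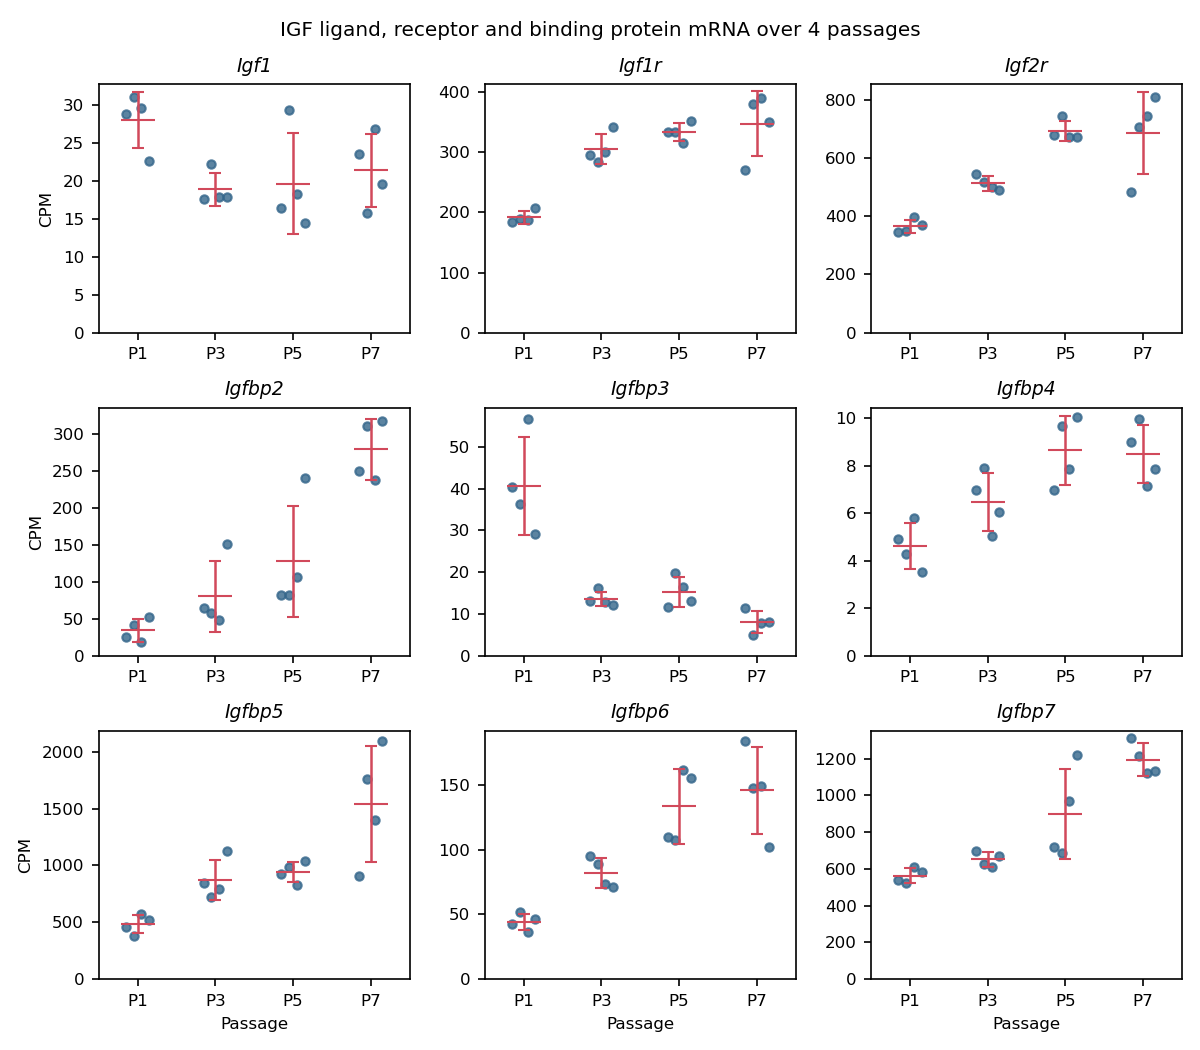
Each panel shows 1 gene, with CPM on the vertical axis (from 0) and passage on the horizontal axis, the 4 libraries of a passage as points and the mean ± SD as bars. Igfbp2 rises from a mean of 34.4 CPM at P1 to 279 CPM at P7, and Igfbp3 falls from 40.6 to 8.10 CPM.

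The ligand Igf1 was low and lost ground early. It stood at 28.8, 31.0, 29.6 and 22.6 CPM in the P1 libraries, 17.5, 22.2, 17.9 and 17.8 CPM at P3, 16.3, 29.3, 18.3 and 14.4 CPM at P5 and 23.4, 15.7, 26.7 and 19.5 CPM at P7. Every P3 library lay below every P1 library, while P5 and P7 overlapped with both. Igf1 fell 1.48-fold from P1 to P3 (log2 -0.57 ± 0.19 SE, adjusted p = 0.0245), a call that was lost without any 1 of the P1 replicates 1, 2 and 3 or the P3 replicates 1, 3 and 4 (adjusted p up to 0.0656). At P7 against P1 the log2 fold change was -0.39 ± 0.19 (adjusted p = 0.0770), which passed without P1 replicate 4, P5 replicate 2 or P7 replicate 3 (adjusted p down to 0.0257), and at P7 against P3 it was 0.18 ± 0.19 (adjusted p = 0.444, approximate 95% interval -0.19 to 0.55).

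Both receptors rose, chiefly before P5. Igf1r stood at 183 to 208 CPM at P1, 284 to 341 CPM at P3, 315 to 351 CPM at P5 and 270.5 to 390.4 CPM at P7. The P1 range lay below every later library, and the later passages overlapped. Igf1r rose 1.59-fold at P3 against P1 (adjusted p = 3.31e-05), and its log2 fold change at P7 against P3 was 0.19 ± 0.10 (adjusted p = 0.119). Without P7 replicate 1, the lowest library of that passage at 270.5 CPM, it was 0.29 and passed at adjusted p = 0.00502. Igf2r, the cation-independent mannose 6-phosphate receptor, stood at 347, 350.3, 397 and 369 CPM at P1, 546, 519, 500.03 and 489 CPM at P3, 681, 744, 672 and 673 CPM at P5 and 485, 707, 744 and 811 CPM at P7. The groups P1, P3 and P5 did not overlap, while P7 replicate 1 lay below P3. Igf2r rose 1.40-fold to P3 and 1.35-fold from P3 to P5 (adjusted p = 0.00245 and 0.00840), and P7 and P5 differed by a log2 fold change of -0.01 ± 0.11. At P7 against P3 its log2 fold change was 0.42 ± 0.11 (adjusted p = 0.00445). Airn, its antisense neighbour, fell at P7 against P1 (log2 -0.99 ± 0.34, adjusted p = 0.0149), though the groups overlapped. Its means there were 1.08 and 2.17 CPM. Over the single steps its log2 fold change was -0.01 ± 0.30 to P3, 0.17 ± 0.30 to P5 and -1.14 ± 0.33 to P7. Of these, only the step to P7 passed (adjusted p = 0.0227), where Igf2r did not change.

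Igfbp2 showed the largest change of the 9 genes and Igfbp3 the opposite one. Igfbp2 stood at 25.1, 41.2, 19.2 and 52.1 CPM at P1, 64.7, 57.8, 48.0 and 151 CPM at P3, 82.2, 82.1, 106 and 239.8 CPM at P5 and 249.6, 311, 238 and 318 CPM at P7. All P7 libraries lay above all P1 and P3 libraries, and the library numbered 4 was the highest at each of the 4 passages. Igfbp2 was 8.10-fold higher at P7 than at P1 (log2 3.02 ± 0.39, adjusted p = 1.50e-06) and 3.48-fold higher than at P3 (log2 1.80 ± 0.37, adjusted p = 0.000475). The single steps were less firm, with log2 fold changes of 1.22 ± 0.37 to P3 (adjusted p = 0.0164), 0.67 ± 0.36 to P5 (adjusted p = 0.170) and 1.13 ± 0.36 to P7 (adjusted p = 0.0361). The step to P3 was lost without P1 replicate 1, P1 replicate 3 or P3 replicate 4 (adjusted p up to 0.111, lowest log2 fold change 0.73), and the step to P7 without P5 replicate 1, 2 or 3 or P7 replicate 2 or 4 (adjusted p up to 0.118). Without P3 replicate 4, the step to P5 passed instead (log2 1.17, adjusted p = 0.0186), and without P5 replicate 4 its log2 fold change was 0.17 (adjusted p = 0.743).

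Igfbp3, the major carrier of IGFs in serum, stood at 40.3, 36.2, 56.7 and 29.1 CPM at P1, 13.1, 16.1, 12.9 and 12.2 CPM at P3, 11.6, 19.8, 16.3 and 13.2 CPM at P5 and 11.4, 5.09, 7.84 and 8.09 CPM at P7. Every P1 library was above every later one, P3 and P5 overlapped, and every P7 library was below them. It fell 2.98-fold at P3 against P1 (log2 -1.58 ± 0.21, adjusted p = 1.09e-05), and at P7 it was 5.005-fold below P1 and 1.68-fold below P3 (adjusted p = 2.93e-08 and 0.00994). The ratio of Igfbp2 to Igfbp3 CPM within a library was 0.339 to 1.79 at P1, 3.58 to 12.4 at P3, 4.14 to 18.2 at P5 and 21.9 to 61.1 at P7.

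Igfbp5 and Igfbp6 rose in steps. Igfbp5, which also binds extracellular matrix, stood at 459, 383, 569 and 517 CPM at P1, 843, 726, 789.9 and 1129 CPM at P3, 925, 984, 829 and 1035 CPM at P5 and 905, 1758, 1401 and 2098 CPM at P7. P1 lay below all later libraries, P3 and P5 overlapped, and 1 P7 library lay within the P5 range and the other 3 above it. Igfbp5 rose 3.20-fold from P1 to P7 (log2 1.68 ± 0.19, adjusted p = 3.89e-07) and 1.77-fold from P3 to P7 (adjusted p = 0.00140). The step from P5 to P7 (log2 0.71 ± 0.19, adjusted p = 0.0141) was lost without P7 replicate 4 (adjusted p = 0.0547). Igfbp6, which prefers Igf2 over Igf1, stood at 36.6 to 51.4 CPM at P1, 71.1 to 94.9 CPM at P3, 107 to 161 CPM at P5 and 102 to 184 CPM at P7. The P1, P3 and P5 groups did not overlap, and it rose 3.30-fold from P1 to P7 (adjusted p = 4.43e-08) and 1.77-fold from P3 to P7 (adjusted p = 0.000383).

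Igfbp7 rose late and Igfbp4 stayed near the bottom of the scale. Igfbp7 stood at 537, 525, 609.9 and 582 CPM at P1, 697, 626, 609 and 672 CPM at P3, 719.8, 687, 969 and 1217 CPM at P5 and 1311, 1216, 1120.0 and 1131 CPM at P7. P1 and P3 overlapped, 2 of the P5 libraries lay near P3, and the highest P5 library lay within the P7 range. Its log2 fold change was 0.21 ± 0.13 to P3 (adjusted p = 0.243), 0.46 ± 0.13 to P5 (adjusted p = 0.0142, or 0.0694 without P5 replicate 4) and 0.41 ± 0.13 to P7 (adjusted p = 0.0395). The last of these was lost without P5 replicate 1, P5 replicate 2, P7 replicate 1 or P7 replicate 2 (adjusted p up to 0.143). P7 was 1.84-fold above P3 (adjusted p = 2.67e-05), and Polr2b, which shares exonic bases with Igfbp7, fell in the same comparison (log2 -0.26 ± 0.08, adjusted p = 0.00729). Igfbp4, a substrate of Pappa, stood at 3.53 to 5.81 CPM at P1, 5.03 to 7.89 CPM at P3, 6.98 to 10.1 CPM at P5 and 7.15 to 9.95 CPM at P7. It rose 1.83-fold from P1 to P7 (adjusted p = 0.000406), where all P7 libraries lay above P1, and its log2 fold change of 0.39 ± 0.18 at P7 against P3 did not pass (adjusted p = 0.0784, or 0.0425 without P3 replicate 2).

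Levels can be compared between genes only per exon length, as CPM per kilobase of exon (RPKM). At P1 the order was Igfbp7 (464 RPKM), Igfbp5 (82.3), Igf2r (41.0), Igfbp6 (34.3), Igfbp2 (23.9), Igf1r (15.4), Igfbp3 (10.1), Igf1 (3.21) and Igfbp4 (1.78), in which Igf2r and Igfbp6, Igfbp6 and Igfbp2, and Igfbp2 and Igf1r overlapped between libraries. At P7 it was Igfbp7 (985 RPKM), Igfbp5 (263), Igfbp2 (194), Igfbp6 (113), Igf2r (76.9), Igf1r (27.9), Igfbp4 (3.27), Igf1 (2.45) and Igfbp3 (2.01), so that Igfbp2 moved from the fifth place to the third and Igfbp3 from the seventh to the last. Igfbp5 and Igfbp2, Igfbp6 and Igf2r, and the last 3 neighbours overlapped. The 6 binding proteins together held 617 ± 42.3 RPKM at P1 (SD, n = 4), 811 ± 82.7 RPKM at P3, 1101 ± 277 RPKM at P5 and 1561 ± 81.7 RPKM at P7. Igfbp7 held 75.3% ± 1.08 of that sum at P1 and 63.2% ± 4.66 at P7, Igfbp2 3.90% ± 1.67 and 12.4% ± 1.33, and Igfbp3 1.63% ± 0.424 and 0.130% ± 0.0427.

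**Figure D2:**
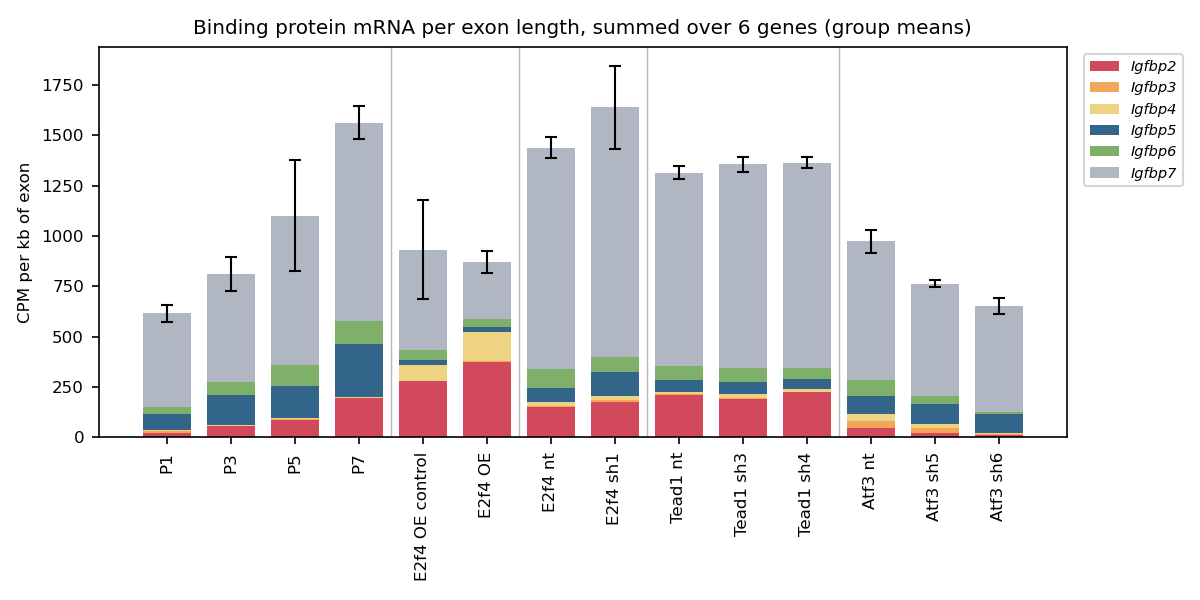
Stacked bars give the group means of CPM per kilobase of exon for the 6 binding protein genes in the 14 groups, with black bars for the SD of the sum over libraries. The sum reaches 617 at P1 and 1561 at P7, and Igfbp7 is the largest layer in every group but the E2f4-overexpressing cells, where Igfbp2 is larger.

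The control cells of the interventions differed from the passage series and from each other in several of the 9 genes. Igfbp4 had a mean of 4.64 to 8.65 CPM over the 4 passages but of 29.9 CPM in the Tead1 nt cells, 53.8 in the E2f4 nt cells, 90.5 in the Atf3 nt cells and 208 in the vector control of E2f4 overexpression. Igfbp3 was at 6.78 CPM in the Tead1 nt cells and 139 CPM in the Atf3 nt cells, and Igf1 at 11.7 and 59.2 CPM. Igfbp5 was lowest in the vector control of E2f4 overexpression, at 142 CPM. These controls came from separate experiments, with cells of different stages and puromycin selection described for the hairpin cells. The Y-linked Ddx3y was at 0 CPM in every passage library and at 36.5 to 87.2 CPM in these controls. The differences between the controls, and the part of stage, selection and sex in them, were not tested.

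E2f4, a transcription factor of the cell cycle, was at 35.5 and 47.5 CPM in the vector control and at 1118 and 1180 CPM in the overexpressing libraries. With it, 2 of the 9 genes rose and 3 fell, where 28.9% of the 13199 genes tested rose and 28.2% fell, and the median log2 fold change was 0.05 over the 9 and 0.01 over all genes. Igf1 stood at 12.3 and 10.6 CPM with E2f4 and at 33.6 and 33.8 CPM in the control. The groups did not overlap, and Igf1 was 2.95-fold lower (log2 -1.56 ± 0.14, adjusted p = 1.60e-05). Igf1r stood at 427 and 447 CPM against 309 and 307 CPM and rose (log2 0.50 ± 0.10, adjusted p = 0.00137). Among the binding proteins, Igfbp4 stood at 369 and 385 CPM against 181 and 235 CPM and rose 1.81-fold (adjusted p = 0.000275). Igfbp7 stood at 339 and 349 CPM against 498 and 709 CPM and was 1.75-fold lower (adjusted p = 0.000894). The 2 control libraries of Igfbp7 were thus further apart than the overexpressing ones. Igfbp6 fell less, from 65.7 and 59.1 to 43.6 and 50.6 CPM (log2 -0.41 ± 0.12, adjusted p = 0.0153). With 1 library left out, its log2 fold change ranged from -0.51 to -0.31. Igfbp2 stood at 498 and 582 CPM against 289 and 511 CPM, groups that overlapped, and did not pass (log2 0.43 ± 0.21, adjusted p = 0.0937). Its log2 fold change was 0.90 without control replicate 2, 0.54 without overexpressing replicate 1 and 0.08 without control replicate 1. Each of these fits left 1 library in a group, so only the sizes are given. Igfbp3 and Igfbp5 had log2 fold changes of 0.07 ± 0.15 and 0.05 ± 0.10. The cells of this experiment also differed in sex-linked genes: Xist was at 1156 to 1400 CPM in the control and 560 to 686 CPM with E2f4, and the Y-linked Ddx3y at 36.5 to 36.8 and 7.36 to 9.96 CPM. Their part in these differences was not tested.

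Knockdown of E2f4 by sh1 took E2f4 from 59.6 to 60.8 CPM down to 20.4 to 21.8 CPM. With it, 4 of the 9 genes rose and 2 fell, where 10% of the 12310 genes tested rose and 7.79% fell, and the median log2 fold change was 0.17 over the 9 and -0.01 over all genes. Igfbp3 stood at 45.2, 51.7 and 44.5 CPM with sh1 and 24.9, 29.8 and 25.5 CPM in nt cells. Igfbp5 stood at 608, 727 and 689 CPM with sh1 and 382, 416 and 378 CPM in nt cells. In both genes every sh1 library was above every nt library, by 1.76-fold for Igfbp3 (log2 0.82 ± 0.10, adjusted p = 0.000107) and 1.72-fold for Igfbp5 (log2 0.78 ± 0.07, adjusted p = 6.21e-06). Igf1 stood at 24.2, 29.2 and 24.0 CPM against 13.8, 14.9 and 17.9 CPM and rose 1.66-fold (adjusted p = 0.00145). Igf1 thus fell when E2f4 was overexpressed and rose when it was knocked down, in 2 experiments with controls of their own. Igfbp6, by contrast, fell in both. The paper used pre-senescent cells for the overexpression and proliferating cells for the knockdown. Igf2r fell 1.25-fold (adjusted p = 0.00164), from 796 to 846 CPM in nt cells to 636 to 689 CPM with sh1. The changes of Igfbp2 (log2 0.22 ± 0.06, adjusted p = 0.0209) and Igfbp6 (log2 -0.25 ± 0.07, adjusted p = 0.0297) were small. Igfbp2 was lost without nt replicate 1 or 3 (adjusted p up to 0.102), and Igfbp6 without sh1 replicate 1 or 2 or any 1 nt library (up to 0.189). Igfbp7 had a log2 fold change of 0.17 ± 0.09 and passed without sh1 replicate 3, its lowest sh1 library (log2 0.31, adjusted p = 5.94e-06).

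**Figure D3:**
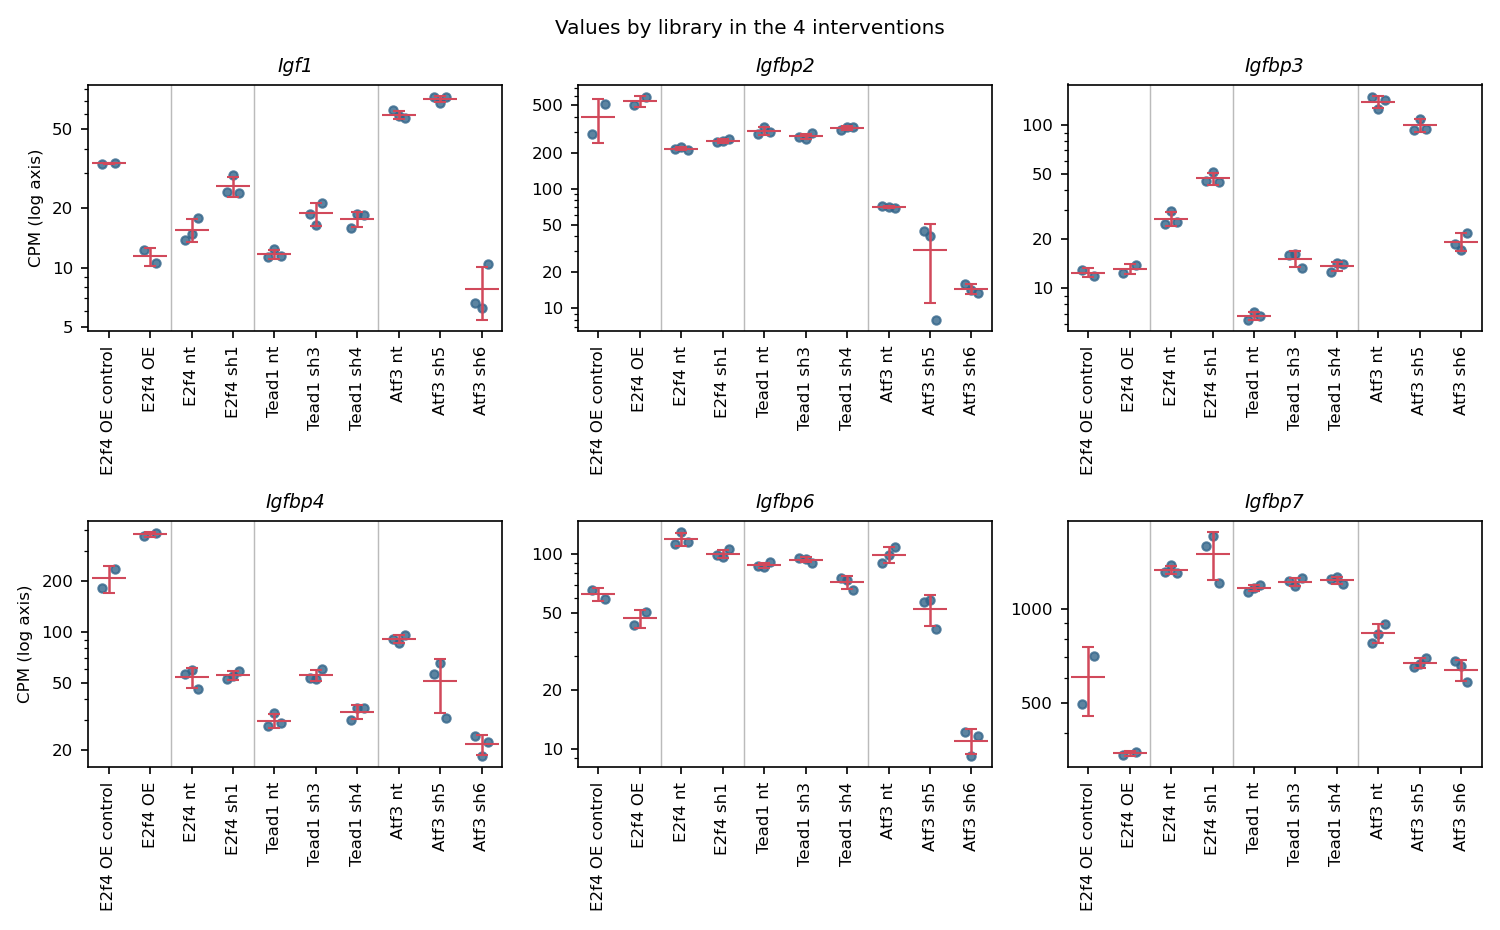
Panels show Igf1, Igfbp2, Igfbp3, Igfbp4, Igfbp6 and Igfbp7 in the 10 intervention groups (OE, overexpression), with CPM on a log axis, libraries as points, the mean ± SD as bars and grey lines between the 4 experiments. Igf1, Igfbp3 and Igfbp6 are lowest of the Atf3 groups in sh6 cells, at means of 7.77, 19.3 and 11.02 CPM.

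Tead1, the DNA-binding partner of the Hippo effectors YAP and TAZ, was at 508 to 572 CPM in nt cells, 268 to 285 CPM with sh3 and 313 to 320 CPM with sh4. With sh3, 4 of the 9 genes rose and 2 fell, where 17.6% of the 13012 genes tested rose and 17.7% fell. With sh4, 3 rose and 3 fell, against 14.4% and 14.7%. The median log2 fold change of the 9 was 0.09 with either hairpin, and 0.00 over all genes. Both hairpins were compared with the same nt libraries. By the sequences the paper lists, sh3 and sh4 target the same stretch of Tead1 but for the end bases. A change shared by both is therefore not a finding of independent hairpins. Igfbp3 stood at 16.1, 16.2 and 13.3 CPM with sh3, 12.6, 14.3 and 14.0 CPM with sh4 and 6.42, 7.14 and 6.77 CPM in nt cells, so that both hairpins lay wholly above nt. It rose 2.24-fold with sh3 (log2 1.16 ± 0.12, adjusted p = 1.54e-09) and 2.01-fold with sh4 (log2 1.00 ± 0.12, adjusted p = 5.05e-08). Igf1 stood at 18.6, 16.4 and 21.3 CPM with sh3, 15.8, 18.7 and 18.4 CPM with sh4 and 11.3, 12.4 and 11.4 CPM in nt cells. It rose with both (log2 0.69 and 0.59, each ± 0.10, adjusted p = 3.78e-06 and 4.80e-05). Igf1r rose with both (log2 0.28 ± 0.04 each, adjusted p = 3.62e-06 and 4.57e-06) and Igf2r fell with both (log2 -0.26 and -0.23, each ± 0.04, adjusted p = 1.28e-05 and 0.000105).

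Igfbp2, Igfbp4, Igfbp5 and Igfbp6 differed between the Tead1 hairpins. In the test of sh4 against sh3, 1 of the 9 genes was higher and 3 were lower, where 3.34% of all genes were higher and 4.03% lower. Igfbp4 stood at 53.7, 52.8 and 59.98 CPM with sh3, 30.3, 35.7 and 35.3 CPM with sh4 and 27.7, 32.9 and 28.9 CPM in nt cells. It was 1.86-fold above nt with sh3 (adjusted p = 3.17e-11), within the nt range or just above it with sh4 (log2 0.18 ± 0.08, adjusted p = 0.0850, down to 0.0197 without sh4 replicate 1 or nt replicate 2), and 1.64-fold lower with sh4 than with sh3 (adjusted p = 1.23e-07). Igfbp5 and Igfbp6 fell with sh4 (log2 -0.30 ± 0.05 and -0.29 ± 0.05, adjusted p = 4.98e-05 and 7.40e-05), not with sh3 (log2 -0.02 ± 0.05 and 0.09 ± 0.05), and the hairpins differed at adjusted p = 0.000909 and 1.55e-05. Igfbp2 was slightly lower with sh3 (log2 -0.16 ± 0.05, adjusted p = 0.0106), a call lost without sh3 replicate 2 or nt replicate 2 (adjusted p up to 0.116), and was higher with sh4 than with sh3 (log2 0.23 ± 0.05, adjusted p = 0.00166). Igfbp7 had log2 fold changes of 0.07 with sh3 and 0.09 with sh4 and did not pass (adjusted p = 0.140 and 0.0712, the latter 0.0455 without sh4 replicate 3). Tead1 itself was higher with sh4 than with sh3 (log2 0.18 ± 0.04, adjusted p = 0.00625).

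Atf3, a stress-induced member of the ATF and CREB family that pairs with AP-1 subunits, was scarce: 2.77 to 3.31 CPM in nt cells, 0.451 to 2.10 CPM with sh5 (adjusted p = 0.0447) and 1.51 to 2.09 CPM with sh6 (log2 -0.79 ± 0.39, adjusted p = 0.114). With sh5, 3 of the 9 genes rose and 4 fell, where 17.7% of the 13345 genes tested rose and 18.1% fell, with medians of -0.31 over the 9 and -0.03 over all genes. With sh6, 2 rose and 6 fell, against 23.8% and 26.0% of all genes, with medians of -2.06 and -0.02. The comparisons share the nt libraries. The falls were much larger with sh6. Igfbp6 stood at 56.9, 58.5 and 41.4 CPM with sh5, 12.2, 9.17 and 11.7 CPM with sh6 and 90.2, 99.3 and 109.9 CPM in nt cells. The 3 groups did not overlap, and Igfbp6 was 1.91-fold lower than nt with sh5 (log2 -0.93 ± 0.15, adjusted p = 0.00154) and 9.05-fold lower with sh6 (log2 -3.18 ± 0.16, adjusted p = 2.26e-07).

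Igfbp3 followed the same order, at 93.6, 109.7 and 95.2 CPM with sh5, 18.8, 17.3 and 22.0 CPM with sh6 and 149, 125 and 143 CPM in nt cells, without overlap. It was 1.40-fold lower with sh5 (adjusted p = 0.00737) and 7.19-fold lower with sh6 (adjusted p = 8.02e-08). Igfbp4 stood at 56.6, 65.1 and 31.0 CPM with sh5, 24.2, 18.4 and 22.5 CPM with sh6 and 90.5, 85.4 and 95.7 CPM in nt cells. It was 1.78-fold lower with sh5 (adjusted p = 0.0158, or 0.0550 without nt replicate 3) and 4.17-fold lower with sh6 (adjusted p = 4.05e-05). Igfbp2 stood at 44.5, 40.3 and 8.01 CPM with sh5, 15.9, 14.2 and 13.3 CPM with sh6 and 71.2, 70.2 and 69.5 CPM in nt cells, so that sh5 replicate 3 was below every other library. It was 4.85-fold lower with sh6 (adjusted p = 0.00202). With sh5 its log2 fold change of -1.18 ± 0.43 did not pass (adjusted p = 0.0551). Without sh5 replicate 3 it was -0.70 and passed (adjusted p = 1.19e-05), and it also passed without sh5 replicate 1 or 2. The 7 genes that passed with sh5 also passed without that library. Summed fibroblast markers spanned 39090 to 52730 CPM over the sh5 libraries and 54320 to 57860 CPM over the nt libraries, and their part was not tested.

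Igf1 fell with sh6 and did not pass with sh5, at 73.0, 68.3 and 72.9 CPM with sh5, 6.62, 6.23 and 10.46 CPM with sh6 and 62.6, 58.3 and 56.9 CPM in nt cells. It was 7.61-fold lower than nt with sh6 (log2 -2.93 ± 0.17, adjusted p = 4.31e-07) and had a log2 fold change of 0.27 ± 0.15 with sh5 (adjusted p = 0.168, or 0.0205 without sh6 replicate 3). Both receptors rose with both hairpins: Igf1r by log2 0.48 ± 0.07 with sh5 and 0.27 ± 0.07 with sh6 (adjusted p = 0.000850 and 0.00564), and Igf2r by 0.30 ± 0.06 and 0.51 ± 0.06 (adjusted p = 0.00616 and 8.10e-05). Igfbp7 fell with both (log2 -0.31 and -0.39, each ± 0.08, adjusted p = 0.0132 and 0.00239), although the sh5 call was lost without nt replicate 3 (adjusted p = 0.0616). Igfbp5 was the steady one, at 563 to 613 CPM with sh5, 536 to 575 CPM with sh6 and 517 to 522 CPM in nt cells. Its small rise with sh5 (log2 0.19 ± 0.06, adjusted p = 0.0355) was lost without sh5 replicate 1 or 2, sh6 replicate 2 or any 1 nt library (adjusted p up to 0.109). In the test of sh6 against sh5, 1 of the 9 genes was higher and 5 were lower, where 25.9% of all genes were higher and 26.6% lower. The drops were 9.17-fold for Igf1, 5.15-fold for Igfbp3, 4.74-fold for Igfbp6 and 2.35-fold for Igfbp4 (adjusted p = 3.62e-07, 2.45e-07, 2.20e-06 and 0.00123).

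The Atf3 sh6 cells also differed in other ways. Skeletal muscle markers summed to 198 to 218 CPM with sh6, 14.6 to 18.7 CPM with sh5 and 38.2 to 39.8 CPM in nt cells, with 9 of 12 markers detected and Myh8, Myog and Myf5 at 0 in sh6 cells. Adipocyte markers summed to 42.2 to 61.2 CPM with sh6, 187 to 212 CPM with sh5 and 136 to 171 CPM in nt cells. Cdkn1a was at 1067 to 1127 CPM with sh6 and 652 to 691 CPM in nt cells. E2f4 was 1.595-fold higher with sh6 than in nt cells (adjusted p = 0.000311). Sex-linked genes differed too, with both hairpins. Xist was at 407 to 464 CPM with sh5, 199.5 to 269 CPM with sh6 and 301 to 327 CPM in nt cells. Ddx3y was at 120.1 to 135.5 CPM with sh6 and 79.9 to 87.2 CPM in nt cells, with sh5 between them. The part of these genes and markers in the differences was not tested.

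**Figure D4:**
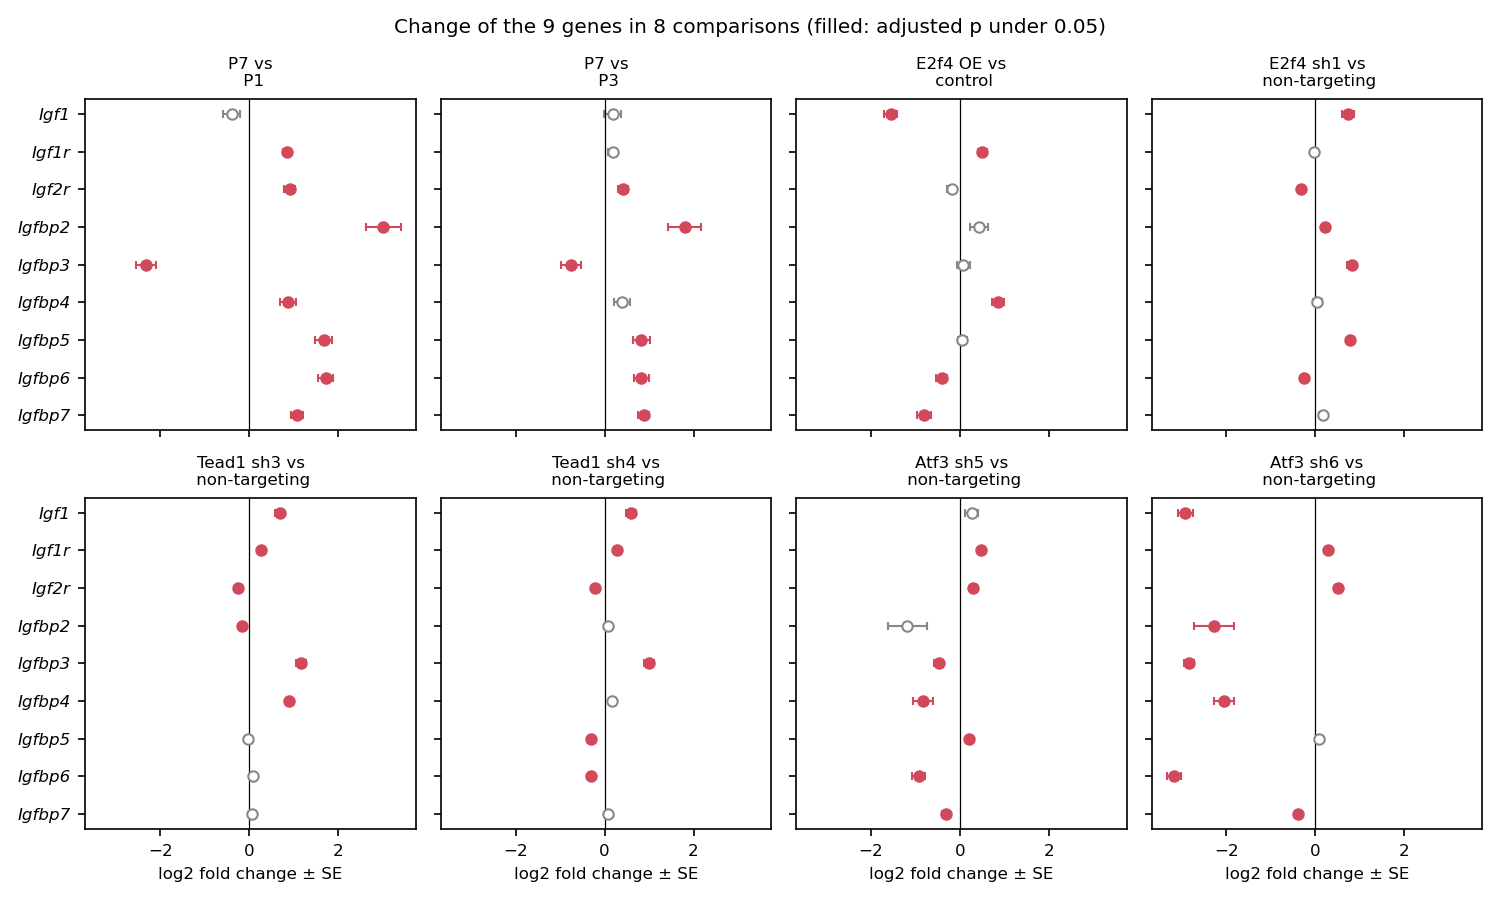
The horizontal axis gives the log2 fold change of each gene with its SE in 8 comparisons, where filled points had an adjusted p under 0.05 and open points did not. Igfbp3 is at -2.32 for P7 against P1, at 1.16 and 1.00 for the Tead1 hairpins and at -2.85 for Atf3 sh6.

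Open chromatin at the start sites was compared by the rank of the peak within its sample. For each gene, the strongest ATAC-seq peak within 1000 bases of a RefSeq start site was taken as its percentile of -log10 p among all peaks of its sample, with 0 for no peak. P7 samples had 200376 to 231558 peaks and P1 samples 168982 to 186562, and a rank depends on the length and make-up of the list, whose part was not tested. At 4 of the 9 genes every P7 sample was below every P1 sample, which held for 29.5% of 17558 genes with a peak, and at none was every P7 sample above, which held for 13.5%. By fold enrichment of the peak instead of -log10 p, the groups did not overlap at 2 of the 9. At Igfbp2 the percentile was 55.6, 29.3, 34.2 and 37.7 at P1, 32.9, 45.9 and 40.6 at P3, 54.9, 59.8 and 50.1 at P5 and 22.7, 17.8 and 7.30 at P7. P5 was thus high and P7 low, while the RNA was highest at P7. The difference of P7 from P1 was -23.2 percentile points, with p = 0.0286 in a two-sided exact permutation test of 3 against 4 samples, the smallest it can give, and adjusted p = 0.0842 over all genes. A peak overlapped the printed stretch before the second Igfbp2 start site in 4 of 4 samples at P1, 2 of 3 at P3, 1 of 3 at P5 and 0 of 3 at P7, and the stretch before the first start site in 2, 1, 1 and 1 samples.

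Igfbp7 and Igfbp6 had strong start-site peaks whose percentile of -log10 p was lower at P7. Igfbp7 went from 86.2 to 91.7 at P1 to 75.1 to 81.6 at P7 (difference -10.97, exact permutation p = 0.0286), and Igfbp6 from 88.2 to 91.7 to 83.1 to 85.1 (difference -6.24, exact permutation p = 0.0286), both at adjusted p = 0.0842. Igf1 went from 59.7 to 72.3 at P1 to 46.5 to 59.0 at P7 (exact permutation p = 0.0571, adjusted p = 0.131). By fold enrichment the means of Igf1, Igfbp4 and Igfbp7 were instead higher at P7, by 0.17, 0.19 and 0.22, and that of Igfbp6 was lower (difference -0.39). Igfbp5, second of the 9 genes in RNA per length, had a peak within 1000 bases in 2 of 4 samples at P1, 0 of 3 at P3, 1 of 3 at P5 and 0 of 3 at P7, and its printed stretch had none in any sample. By percentile, Igf2r was the sole gene with a higher mean at P7 (66.6, range 65.5 to 67.3, against 61.8, range 55.6 to 68.5), and the groups overlapped. The bases covered by peaks in the same window were instead fewer for Igf2r at P7 (773 to 920) than at P1 (1187 to 1399). The mean covered bases of the other genes were also lower at P7, and the same count over all genes was not made.

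Peaks were also counted along the genes. Counting peaks found in over 60% of the samples of a passage, within the gene and 10000 bases on either side, Igf1r had 46 at P1 and 63 at P7, of which 9 at P7 had no peak in any P1 sample and 2 at P1 none in any P7 sample. Igf2r went from 12 to 18, with 4 gained and 0 lost. Over the whole genome, the same count went from 150537 to 204266, which is 1.36-fold, against 1.37-fold for Igf1r and 1.5-fold for Igf2r. Of the P7 peaks, 16.3% of the genome, 14.3% of Igf1r and 22.2% of Igf2r had no peak in any P1 sample, and no test of the difference was made. With 4 samples at P1 and 3 at P7, the rule of over 60% asked for a larger share of samples at P1. Its part in these counts was not tested. The other 7 genes gained at most 1 and lost at most 2. The 9 gained regions of Igf1r lie 13590 to 252187 bases downstream of its start site, and the gained region near Igfbp2, chr1:72821349-72821615, has its middle at -2998 bases from its start site.

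**Figure D5:**
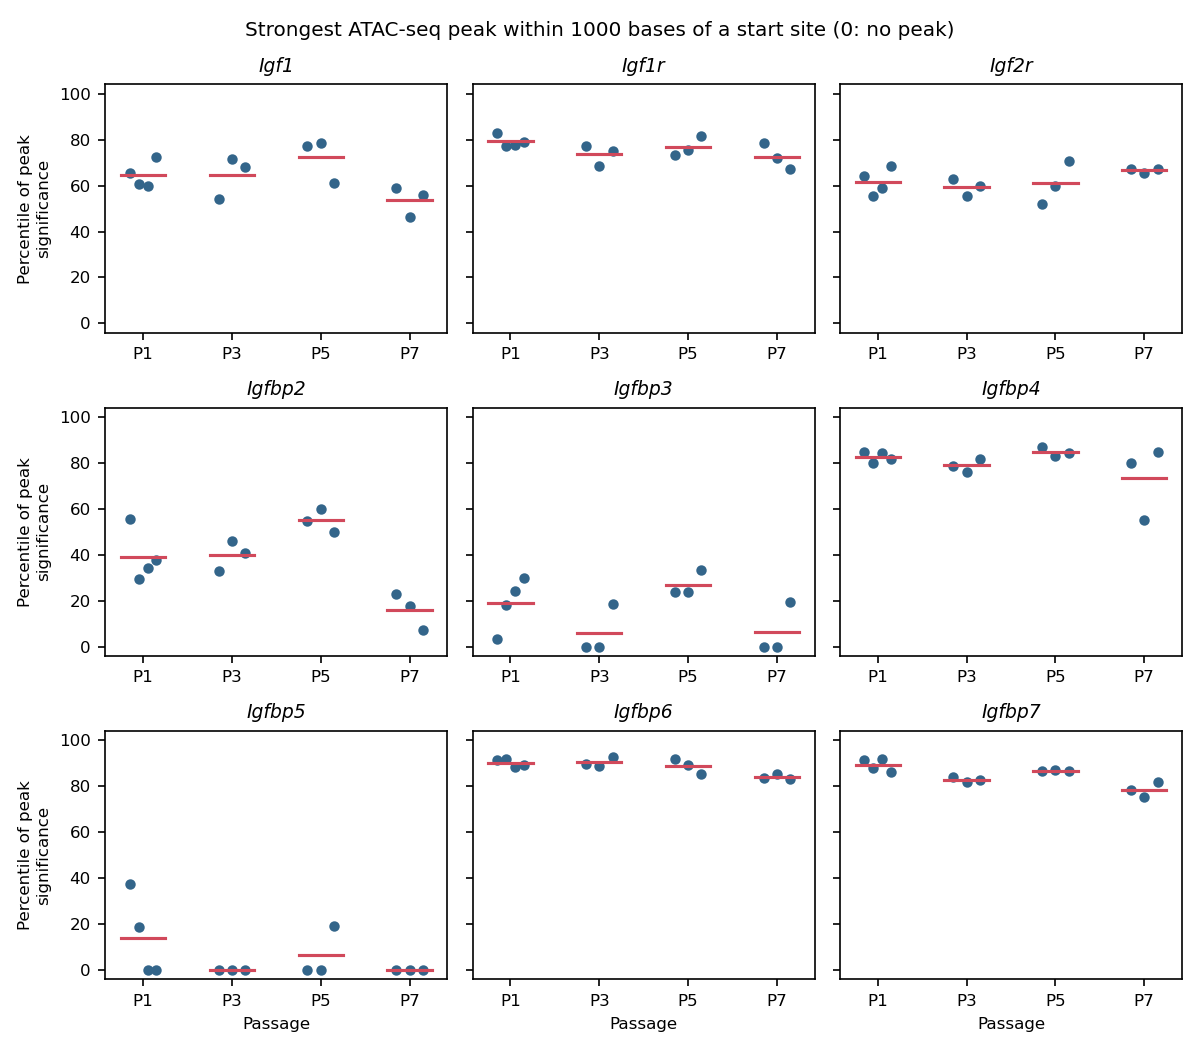
Each panel shows 1 gene, with the percentile of its strongest start-site peak on the vertical axis (0 means no peak) and passage on the horizontal axis, the 4 P1 samples and the 3 samples of each later passage as points and the means as lines. Igfbp2, Igfbp6 and Igfbp7 sit lower at P7 than at P1, and Igfbp5 has a peak in only 3 of the 13 samples.

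The wider pathway was read from 7 lists of 63 other genes, of which 54 were tested in the passage series. At P7 against P1, 21 of the 54 rose and 13 fell, with a median log2 fold change of 0.13, where 30.5% of all genes tested rose and 31.9% fell. At P7 against P3, 12 rose and 15 fell, with a median of 0.04, where 24.8% and 26.5% of all genes did. These 2 pairs of shares are also the background of the lists that follow. Igf2, the other IGF ligand, fell from 25.4 to 46.9 CPM at P1 to 3.68 to 6.73 CPM at P3 and 1.19 to 1.84 CPM at P7, 24.8-fold below P1 (adjusted p = 1.73e-11) and 3.70-fold below P3 (adjusted p = 1.52e-05). The insulin receptor Insr, tested beside it, did not pass in either comparison. All 4 listed genes of other IGF-binding proteins were too low to be tested in the passage series.

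All 9 genes of the proteases that cut binding proteins, and of their inhibitors, changed at P7 against P1, with 6 up and 3 down, and at P7 against P3 5 rose and 1 fell. Pappa, which cuts Igfbp4 and Igfbp5, was at 51.3 to 64.9 CPM at P1, 222 to 274 CPM at P3 and 393 to 623 CPM at P7, an 8.78-fold rise over P1 (adjusted p = 9.67e-12) and 2.12-fold over P3 (adjusted p = 1.05e-05). Its relative Pappa2 was 2.50-fold lower at P7 than at P1 (adjusted p = 0.000527), and Stc1, an inhibitor of pappalysins, was 3.37-fold above P3 (adjusted p = 9.01e-07). The serine protease Htra1 and the metalloprotease Adamts1 rose 2.35-fold and 2.86-fold over P1, and Adam12 fell 2.48-fold (adjusted p = 1.21e-08, 4.48e-11 and 5.00e-08). Of the CCN matrix proteins, 4 of 5 rose over P1, led by Ccn2 at 3.54-fold (adjusted p = 2.88e-07), while at P7 against P3 1 rose and 2 fell.

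Of 12 receptor adaptors, 3 rose and 3 fell at P7 against P1, 3 rose and 5 fell at P7 against P3, and Irs2, an insulin receptor substrate, fell most against P1, 3.11-fold (adjusted p = 7.82e-09). Of 23 genes of the PI3K, AKT and mTOR cascade, 6 rose and 6 fell at P7 against P1, none of them over 2-fold, and 2 rose and 6 fell at P7 against P3. Of the 3 Igf2 mRNA-binding proteins, Igf2bp3 and Igf2bp1 rose 3.59-fold and 2.97-fold over P1 (adjusted p = 1.06e-09 and 2.94e-06). At P7 against P3, Igf2bp3 rose and the other 2 did not pass. With the Tead1 hairpins, 15 and 11 of the 54 pathway genes rose and 17 fell with each, where 17.6% and 14.4% of all genes rose and 17.7% and 14.7% fell. Pik3r1 (regulatory subunit of PI3K), Irs2 and Stc2 rose with both of these hairpins, whose targets overlap, by mean log2 0.86, 0.78 and 0.76. With the Atf3 hairpins sh5 and sh6, 10 and 15 rose and 15 and 21 fell, where 17.7% and 23.8% of all genes rose and 18.1% and 26.0% fell. Igf2 and the adaptor Shc1 fell with both, by mean log2 -1.70 and -0.78, and the adaptor Grb14 rose with both, by 0.88. With E2f4 overexpression, 16 of 55 rose and 22 fell (all genes 28.9% and 28.2%), and with sh1 against E2f4 6 of 54 rose and 7 fell (10% and 7.79%).

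Genes with the most similar course over the 16 passage libraries were found by Pearson r of log2 CPM, as a description across libraries that share their passage. For Igfbp2 these were Mafk, Rassf3 and Lmod1 (r = 0.973, 0.967 and 0.966), for Igfbp3 Akr1c14, Mapk12 and the proteoglycan gene Dcn (0.963, 0.955 and 0.953), and for Igfbp5 Parm1, Cux1 and Bace1 (0.981, 0.976 and 0.966). Igfbp7 ran with Bckdha, Adam15 and Selenom (0.986, 0.982 and 0.981), Igfbp6 with Phyhd1, Ssu72 and Uckl1 (0.981, 0.972 and 0.969) and Igfbp4 less closely with Maged2, Cercam and Pik3ip1 (0.928, 0.914 and 0.909). Igf1r ran with 9930111J21Rik1, Heg1 and Afap1 (0.984, 0.984 and 0.979), Igf2r with Slit3, Epg5 and Sh3pxd2a (0.971, 0.967 and 0.965), and Igf1 with Mitf and Il13ra2 (0.841 and 0.810). Among the 9 genes themselves, the closest pair was Igf1r and Igf2r (r = 0.914) and the most opposed Igf1r and Igfbp3 (r = -0.904).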

How the data were processed

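RNA-seq values were deposited as counts per gene in 44 libraries. Per the labels and the methods, the authors used Trimmomatic 0.39 for trimming, HISAT2 2.2.1 for alignment (genome mm10) and HTSeq 0.12.4, without strand, for counting. Rows that name no gene (7.5% to 16.8% of reads in 28 libraries) were left out. Counts were tested per experiment with edgeR 4.0.16 (filterByExpr, TMM, quasi-likelihood, Benjamini-Hochberg over all genes, threshold 0.05) in R 4.3.3, and the script was tested on simulated counts. ATAC-seq peaks, 13 samples, were deposited by the authors as MACS2 lists per sample with -log10 p-values and fold enrichment (a signal ratio). Peak ranks were compared by exact permutation (35 splits, numpy 2.4.6). Adjustment was over all start sites with a peak, in place of the planned adjustment over the 9 genes. The 18 bisulfite samples were not analysed here. Intervals are fitted, and counting precision follows the depth given above. The named pathway genes were the strongest past 2-fold in each list for the passages and the 3 largest shared by both hairpins, and likeness took 3 genes per gene, of which 1 is not reported here. The 9 genes and all lists were chosen with earlier results of these data known. Alternatives were DESeq2 1.42.0, its size factors, no filter, at least 10 counts in every library, a replicate block, only the groups compared, and each library left out. For ATAC-seq they were a window of 500 bases, a stricter peak threshold and fold enrichment.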

Additional observations from a re-analysis of the deposited data

Results flagged for a closer look

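Over 45 groups of 4 (each of the 9 genes in the RNA libraries of each passage and in the P1 ATAC-seq samples), 4 RNA groups held 1 library set apart from the other 3 by Dixon's criterion at the 95% level, which chance alone flags in about 1 of 20 groups. These were Igf1 in P3 replicate 2 (22.2 CPM), Igf2r in P5 replicate 2 (744 CPM), and Igfbp2 in P3 replicate 4 (151 CPM) and P5 replicate 4 (239.8 CPM).

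Hairpins against the same gene differed in edgeR's quasi-likelihood test of the difference itself. For Tead1 sh4 against sh3, the log2 difference was 0.23 for Igfbp2, -0.72 for Igfbp4, -0.28 for Igfbp5 and -0.39 for Igfbp6. For Atf3 sh6 against sh5 it was -3.20 for Igf1, -0.20 for Igf1r, 0.21 for Igf2r, -2.36 for Igfbp3, -1.23 for Igfbp4 and -2.25 for Igfbp6. The calls of Igf1r and Igf2r were lost without sh6 replicate 2 (adjusted p up to 0.0607 and 0.0609), and that of Igf1r also without sh6 replicate 1.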

How the results depend on the processing

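Outside of leaving out libraries, 669 of 684 log2 fold changes of RNA kept their direction and their side of the threshold, 10 gained and 5 lost a call, and none of these reversed. Leaving out 1 library or sample kept 1211 of 1296 such values, and the number of the 9 genes past the test ranged from 2 to 4 at P7 against P5 (4 with all libraries, 2 without P5 replicate 1 or 2 or P7 replicate 2 or 4) and from 4 to 8 with Atf3 sh5 (7 with all libraries, 4 without nt replicate 3). A lone sample left in a group was assumed to vary like the others. Log2 fold changes near 0 changed sign in these fits, with ranges of -0.20 to 0.18 (Igf1, P5 against P3), -0.10 to 0.12, -0.116 to 0.0551 and -0.00718 to 0.264 (Igf2r, Igfbp4 and Igfbp6, P7 against P5), -0.0869 to 0.00467 and -0.0521 to 0.126 (Igf1r and Igfbp4, E2f4 sh1), -0.0681 to 0.0641 (Igfbp5, Tead1 sh3), and -0.183 to 0.0101, -0.0375 to 0.0292, -0.00542 to 0.0668 and -0.00698 to 0.0366 (Igf1, Igf1r, Igf2r and Igfbp7, Tead1 sh4 against sh3). By fold enrichment of the ATAC-seq peak, P7 minus P1 turned to 0.17 for Igf1, 0.19 for Igfbp4 and 0.22 for Igfbp7, and 2 instead of 4 start sites did not overlap. The cause was not tested.

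Replicate numbers were not taken to pair the libraries, since same-numbered libraries had correlations of -0.262 to 0.276 in the passage series and below 0.1 in at least 1 pair of every knockdown experiment. In the passage series 11 of 24 pairs were over 0.1, among them all 6 of replicate 4 (0.105 to 0.276). E2f4 overexpression had only 2 pairs (0.142). With the replicate block, 7, 4, 4, 8 and 6 of the 9 genes passed at P3 against P1, P5 against P3, P7 against P5, P7 against P1 and P7 against P3, and 6, 6, 6, 6, 7 and 8 with E2f4 overexpression, E2f4 sh1, Tead1 sh3, Tead1 sh4, Atf3 sh5 and Atf3 sh6. Igfbp2 gained its call at P5 against P3 (log2 0.68, adjusted p = 0.0184), with E2f4 overexpression (adjusted p = 9.73e-05) and with Atf3 sh5 (adjusted p = 0.0330), where Igfbp5 lost its call (adjusted p = 0.0619). In the E2f4 knockdown, 6 of 6 libraries correlated best with their own number, though only at r of 0.0232 to 0.0342. In the passage, Tead1 and Atf3 series, 10 of 16, 5 of 9 and 2 of 9 did. In E2f4 overexpression 4 of 4 did, but with 2 libraries per group these correlations share 1 size and differ only in sign.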
